A study of Canis lupus familiaris with 15 samples.

Results

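Out of 5246 genes measured on cDNA arrays of dog mammary tumour cell lines, 6 genes of transforming growth factor beta (TGF-beta) and bone morphogenetic protein (BMP) signalling, or responsive to it, were examined: ACVR1, SMAD2, CITED1, ID3, RGCC and CCN1. They were taken by gene symbol, after symbols had been updated, and all 6 were found. The set was chosen with earlier results of these data known, so its counts and ranks do not describe an unbiased sample of the pathway. RGCC had 2 probes and the others 1 each, giving 7 of 22176 probes, and all 6 genes had a value on every one of the 15 arrays. TGF-beta and BMPs are secreted ligands that bind pairs of serine/threonine kinase receptors, which phosphorylate SMAD proteins that then enter the nucleus and regulate target genes. In mammary epithelium the pathway is known for restraining growth and, in tumour cells, for promoting motility and matrix production. ACVR1 encodes a type I receptor of the BMP branch, and SMAD2 a SMAD protein phosphorylated by TGF-beta and activin receptors. CITED1 encodes a transcriptional coactivator that binds SMAD4. ID3, an inhibitor of basic helix-loop-helix transcription factors, is a classical BMP target. RGCC, a regulator of the cell cycle, and CCN1, a secreted matrix-associated protein also known as CYR61, are induced by TGF-beta in human or rodent cells.

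The arrays compared RNA of 3 dog mammary tumour cell lines, each grown to near confluence with no treatment named. P114 derives from an anaplastic carcinoma of the mammary gland, CMT-U229 from a benign mixed tumour, and CMT-U335 from an osteosarcoma that arose in the mammary gland. Each tumour type is thus represented by 1 line, so a difference between lines cannot be told apart from a difference between tumour types, and in whole-culture RNA fewer cells with a transcript and less transcript per cell cannot be told apart. Every array carried RNA from 2 lines labelled with Cy3 and Cy5, 5 arrays for each of the 3 pairs, in both dye orders: the first line was in Cy5 on 3 arrays of P114 against CMT-U335, on 2 arrays of P114 against CMT-U229 and on 3 arrays comparing CMT-U229 with CMT-U335.

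A value is the log2 ratio of the first line of a pair over the second, so a positive one means higher in the first line. The numerator is not stated, and Cy5 was taken for it as the channel that the labels list first, so directions are likely but unsettled. With Cy3 as numerator every direction given here would turn, and sizes and p-values would stay. The log base is not stated either and was taken as 2. A gene was called when limma's two-sided test of the mean of 5 arrays against 0 had a Benjamini-Hochberg adjusted p under 0.05 over all genes. Ratios carry no spot intensities, so signal over background and absolute levels are unknown, and precision is limited by the number of arrays. The labels number the arrays of a pair as biological replicates, whereas the design text speaks of dye swaps, so some may be repeats of the same RNA and p-values measure only the spread between arrays. Couples of opposite dye were sought on 78 genes of P114 against CMT-U229 and 52 of each other pair. These genes varied widely between arrays and had little dye effect in the other pairs, and the closest possible pairing was taken. On these genes arrays 1 and 3 and arrays 2 and 5 of P114 against CMT-U229 lay close together, with a median 0.0598 of a gene's variation within couples. So did 2 and 3 and 4 and 5 of CMT-U229 against CMT-U335 (0.177). Over all probes, opposite-dye arrays of P114 against CMT-U229 correlated only from 0.090 to 0.222, and arrays of the same dye order from 0.196 to 0.323. Opposite-dye arrays comparing CMT-U229 with CMT-U335 reached the lowest correlation, -0.00015, with 0.341 as their highest, whereas same-dye arrays of this pair lay between 0.238 and 0.497. Arrays comparing P114 with CMT-U335 lay between 0.228 and 0.348 for opposite dyes and between 0.294 and 0.415 for the same dye order. In P114 against CMT-U335 the closest couples, 1 with 3 and 4 with 5, were less clear (0.426). Results are therefore also given with such couples of opposite dye averaged, which leaves 3 values per pair.

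Of the marker lists for simple epithelium, 3 of 4 measured genes were higher and none lower in P114 than in CMT-U335, as were 3 of 4 in CMT-U229 against CMT-U335, and 2 of 4 in P114 against CMT-U229. Of 8 measured fibroblast and mesenchyme markers, 1 was higher and 3 lower in P114 than in CMT-U335, 4 were higher and none lower in P114 than in CMT-U229, and none was higher and 5 lower in CMT-U229 than in CMT-U335. Of 5 measured bone markers 2 were higher and 1 lower in P114 than in CMT-U335, 2 were higher and none lower in P114 than in CMT-U229, and 1 was higher and 1 lower in CMT-U229 than in CMT-U335. Of 8 leukocyte markers 1 was higher in the first line of each pair, and of 5 endothelial markers none was called, with mean log2 ratios from -0.18 to 0.16. Over all genes 22.3% were called in P114 against CMT-U335 (7.89% higher and 14.4% lower). In P114 against CMT-U229 it was 7.30% (3.32% and 3.98%), and in CMT-U229 against CMT-U335 17.3% (8.77% and 8.58%). Presence or absence of a marker in a line cannot be read from ratios. The part of these markers in the ratios of the 6 genes was not tested.

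RGCC and CITED1 stood highest in CMT-U229, the benign mixed tumour line, and CCN1 stood lowest there. RGCC was 6.03-fold lower in P114 than in CMT-U229 and 8.29-fold higher in CMT-U229 than in CMT-U335. CITED1 was 2.99-fold lower in P114 than in CMT-U229 and 3.02-fold higher in CMT-U229 than in CMT-U335. CCN1 differed in all 3 pairs, whereas the mean ratios of ACVR1, ID3 and SMAD2 were under 2-fold in every pair. Between P114 and CMT-U335, 3 of the 6 genes were called, where 22.3% of all 5246 genes were called. Of the 3, ACVR1 was higher in P114, as were 7.89% of all genes, and SMAD2 and CCN1 were lower, as were 14.4%. Between P114 and CMT-U229, 3 of the 6 were called, where 7.30% of all genes were called. CCN1 was higher in P114, as were 3.32% of all genes, and RGCC and CITED1 were lower, as were 3.98%. Between CMT-U229 and CMT-U335, 5 of the 6 were called, where 17.3% of all genes were called. ACVR1, ID3, RGCC and CITED1 were higher in CMT-U229, as were 8.77% of all genes, and CCN1 was lower, as were 8.58%. The same sign on all 5 arrays was seen for 4 of the 6 genes in P114 against CMT-U335 (32.5% of all genes), 4 of 6 in P114 against CMT-U229 (18.4% of all genes) and 6 of 6 in CMT-U229 against CMT-U335 (28.7% of all genes). The median absolute log2 ratio of the 6 genes was 0.19, 0.82 and 1.20 for these pairs in turn, and that of all genes 0.15, 0.10 and 0.12. Since the members were chosen with earlier results known, these counts and sizes describe the chosen genes only. With the apparent dye swaps averaged the counts of called members were 1 (CCN1), 1 (RGCC) and 4 (all but ID3 of the 5). The calls over all genes were then 837, 79 and 410 in these pairs, against 1169, 383 and 910 over 5 arrays. Without replicate 1, 2, 3 or 5 of P114 against CMT-U229, 202, 224, 235 or 223 genes were called, and the 3 members were called in each case. Between CMT-U229 and CMT-U335, 586 and 571 genes were called without replicate 2 or 5, against 910 over 5 arrays.

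**Figure D1:**
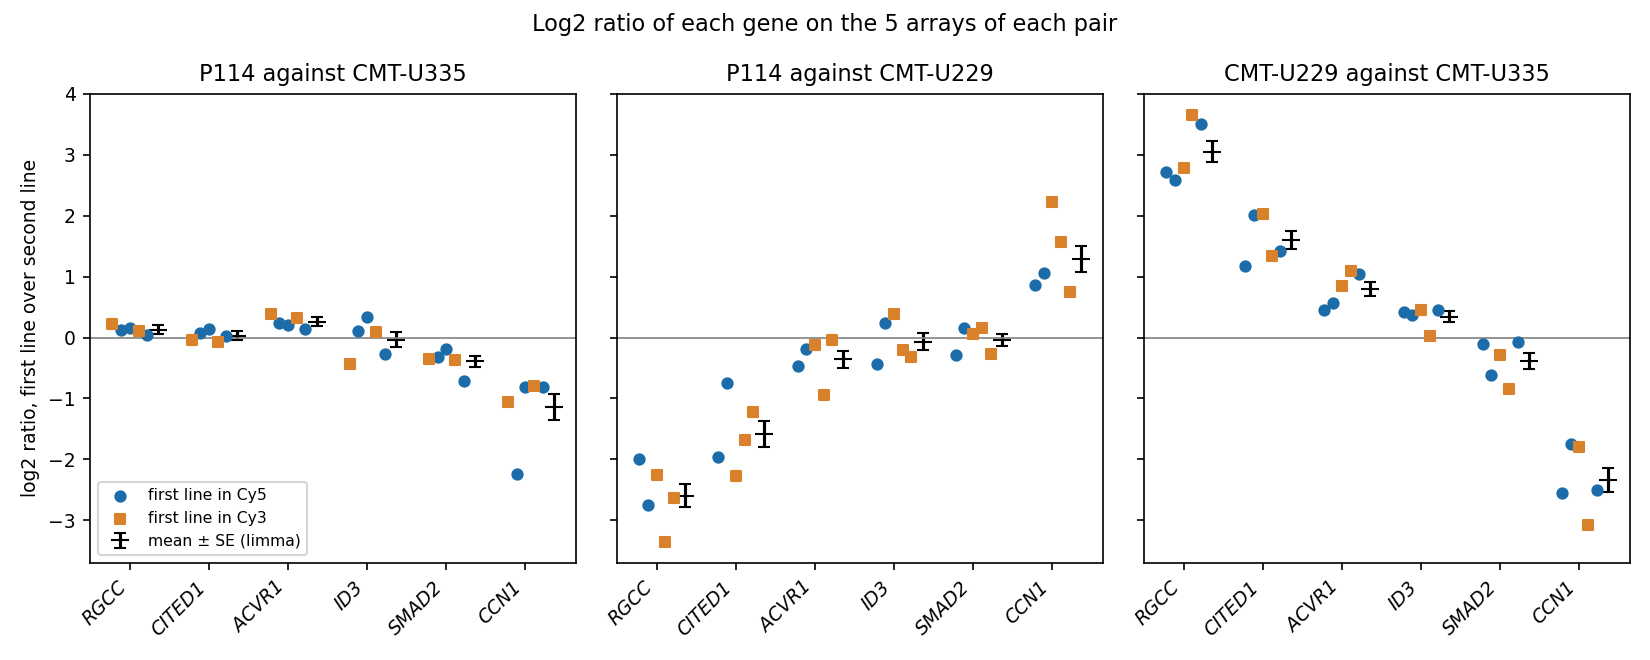
Log2 ratio (y axis, first line of the pair over the second) of the 6 genes (x axis) on the 5 arrays of each pair of lines (panels). Circles are arrays with the first line in Cy5, squares arrays with the first line in Cy3, and the black bars give the mean ± SE from limma. RGCC and CITED1 lie below 0 on every array of P114 against CMT-U229 and above 0 on every array of CMT-U229 against CMT-U335, CCN1 the other way round.

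The receptor gene ACVR1, of the BMP branch, had log2 ratios of 0.46, 0.56, 0.85, 1.09 and 1.05 on arrays 1 to 5 of CMT-U229 against CMT-U335. All 5 lay above 0, and their mean was 0.80 ± 0.11 (SE, n = 5, adjusted p = 0.00355, limma), or 1.74-fold higher in CMT-U229. On the arrays of P114 against CMT-U335 the values were 0.39, 0.24, 0.20, 0.32 and 0.14, again all above 0, with a smaller mean of 0.26 ± 0.0729 (adjusted p = 0.0399, limma). That call was lost without replicate 1, 2, 3, 4 or 5 (adjusted p from 0.0577 to 0.119, limma) and with the swaps averaged (adjusted p = 0.0946). It was also lost in a fit over all 15 arrays with a mean for each pair (adjusted p = 0.124, limma) and in a fit of single probes (adjusted p = 0.0776). In P114 against CMT-U229 the values were -0.47, -0.18, -0.13, -0.94 and -0.041, all below 0 but widely spread, and the mean of -0.35 did not pass the test (adjusted p = 0.222, limma), with a 95% interval from -0.68 to -0.025.

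SMAD2, which encodes the transducer that TGF-beta receptors phosphorylate, had log2 ratios of -0.35, -0.32, -0.19, -0.36 and -0.71 on the arrays of P114 against CMT-U335, all below 0, with a mean of -0.39 ± 0.0915 (SE, n = 5, adjusted p = 0.0199, limma), or 1.31-fold lower in P114. This call was lost without replicate 1 or 4 (adjusted p = 0.0501 and 0.0572, limma) and with the swaps averaged (adjusted p = 0.0532). On the arrays of CMT-U229 against CMT-U335 the values were -0.11, -0.61, -0.29, -0.85 and -0.081. These too were all below 0, and the mean was nearly the same, -0.39, but the spread was wider and the test was not passed (adjusted p = 0.0866, limma; 95% interval from -0.69 to -0.085). In P114 against CMT-U229 the arrays fell on both sides of 0, from -0.29 to 0.15, with a mean of -0.040 and an interval from -0.27 to 0.19.

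CITED1, the coactivator gene, had log2 ratios of -1.97, -0.75, -2.28, -1.68 and -1.22 on the arrays of P114 against CMT-U229. Every array lay below 0, and the mean was -1.58 ± 0.21 (SE, n = 5, adjusted p = 0.00610, limma). For CMT-U229 against CMT-U335 the values were 1.18, 2.00, 2.03, 1.34 and 1.42, with a mean of 1.59 ± 0.15 (adjusted p = 0.000717, limma). By absolute mean ratio CITED1 ranked 44 in P114 against CMT-U229 and 53 in CMT-U229 against CMT-U335 among 5246 genes. Between P114 and CMT-U335 the arrays lay on both sides of 0, at -0.039, 0.076, 0.14, -0.066 and 0.031, and the mean of 0.029 was not called (adjusted p = 0.827, limma). The 95% interval of that mean ran from -0.14 to 0.20. With the swaps averaged the ratio of P114 to CMT-U229 had nearly the same size, -1.60, with adjusted p = 0.0754 (limma) over 3 values.

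ID3, which blocks DNA binding by basic helix-loop-helix factors, varied least of the 6 genes between the lines. For CMT-U229 against CMT-U335 its log2 ratios were 0.42, 0.37, 0.44, 0.025 and 0.45, so 4 arrays lay close together and replicate 4 near 0. The mean was 0.34 ± 0.0852 (SE, n = 5, adjusted p = 0.0341, limma), or 1.27-fold higher in CMT-U229. The call was lost without replicate 1, 2, 3 or 5 (adjusted p = 0.0826, 0.114, 0.111 and 0.119, limma), with a dye term (adjusted p = 0.0505) and with the swaps averaged (adjusted p = 0.0951). It was lost as well in the fit over all 15 arrays with a mean for each pair (adjusted p = 0.0694, limma), the loop fit (adjusted p = 0.112) and the fit of single probes (adjusted p = 0.0677). Arrays of P114 against CMT-U335 ranged from -0.44 to 0.34 and those of P114 against CMT-U229 from -0.43 to 0.39. Both ranges straddle 0, and the means of -0.037 and -0.066 were not called (adjusted p = 0.877 and 0.896, limma), with 95% intervals from -0.32 to 0.25 and from -0.39 to 0.26.

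RGCC gave the widest contrast of the set. Its log2 ratios were -1.99, -2.75, -2.25, -3.35 and -2.63 on the arrays of P114 against CMT-U229, all far below 0, with a mean of -2.59 ± 0.19 (SE, n = 5, adjusted p = 0.000353, limma). Against CMT-U335, CMT-U229 had ratios of 2.72, 2.58, 2.79, 3.65 and 3.51, all far above 0, with a mean of 3.05 ± 0.18 (adjusted p = 0.000123, limma). RGCC ranked 5 and 9 among the 5246 genes by absolute mean ratio in these pairs. For P114 against CMT-U335 the values were 0.22, 0.12, 0.16, 0.099 and 0.045. All lay just above 0, but the mean of 0.13 did not pass the test (adjusted p = 0.247, limma), with a 95% interval from -0.033 to 0.29. By dye order, the mean in P114 against CMT-U229 was -2.37 with P114 in Cy5 and -2.74 with P114 in Cy3, and in CMT-U229 against CMT-U335 it was 2.94 and 3.22 in the same order. Both calls were kept with the swaps averaged (adjusted p = 0.0385 and 0.00485, limma).

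RGCC was read by a pair of probes, here called A and B. Probe A averaged -2.49 ± 0.38 (SD, n = 5) and probe B -2.70 ± 0.67 in P114 against CMT-U229. In CMT-U229 against CMT-U335 probe A averaged 2.97 ± 0.48 and probe B 3.13 ± 0.54, so the probes differed by less than the spread between arrays. In P114 against CMT-U335 probe A ranged from -0.014 to 0.34 and probe B from -0.25 to 0.46. Neither probe stood on 1 side of 0 there, although their means, 0.12 and 0.13, were nearly equal. They ran opposite across those arrays, with probe A at -0.014 and probe B at 0.46 on replicate 1, and 0.34 and -0.25 on replicate 5, so the averaged values above spread less than either probe.

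**Figure D2:**
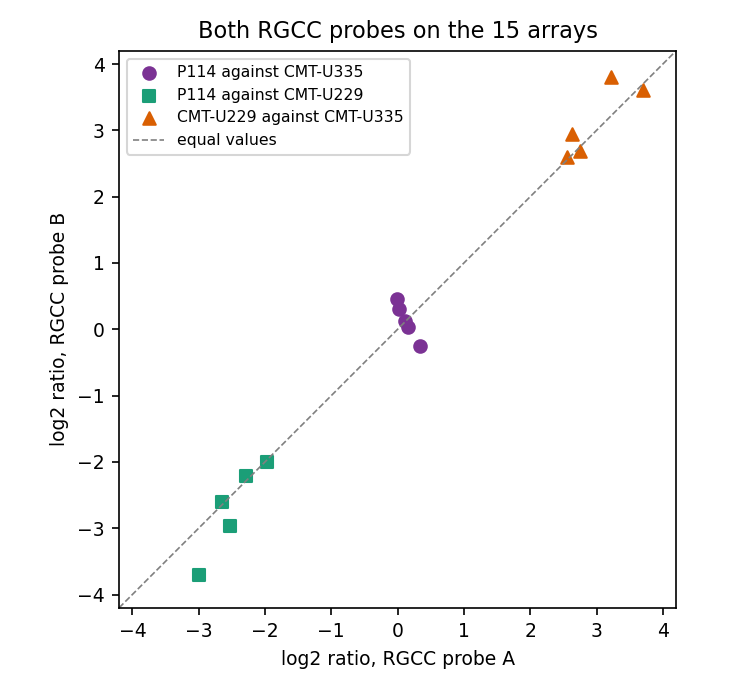
Log2 ratio of RGCC probe B (y axis) against RGCC probe A (x axis) on the 15 arrays, with a symbol for each pair of lines and a dashed line of equal values. The 3 pairs form separate groups along the line, with both probes between -3.70 and -1.97 in P114 against CMT-U229, between -0.25 and 0.46 in P114 against CMT-U335, and between 2.55 and 3.81 in CMT-U229 against CMT-U335.

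CCN1, the secreted ligand of integrins, ran opposite to RGCC and CITED1 in the pairs that include CMT-U229. Its log2 ratios were 0.86, 1.05, 2.22, 1.57 and 0.74 on the arrays of P114 against CMT-U229, all above 0, with a mean of 1.29 ± 0.21 (SE, n = 5, adjusted p = 0.0136, limma), or 2.44-fold higher in P114. For CMT-U229 against CMT-U335 they were -2.55, -1.75, -1.80, -3.07 and -2.50, all below 0, with a mean of -2.33 ± 0.20 (adjusted p = 0.000548, limma), or 5.04-fold lower in CMT-U229. For P114 against CMT-U335 they were -1.06, -2.24, -0.81, -0.79 and -0.82. Again all lay below 0, with replicate 2 far below the other 4, and the mean was -1.14 ± 0.22 (adjusted p = 0.00837, limma), or 2.21-fold lower in P114. Without replicate 2 it was -0.87 with adjusted p = 0.00167 (limma). With the swaps averaged the ratio of P114 to CMT-U229 was 1.34 with adjusted p = 0.0548 (limma), and the other 2 ratios stayed called.

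The 3 pairs form a closed loop, so each gene's level in a line can be set against the mean of the 3 lines from all 15 arrays together. RGCC stood at -0.82 in P114, 1.88 in CMT-U229 and -1.06 in CMT-U335 (each ± 0.0813 SE, log2), a range of 2.94, or 7.68-fold between the highest and the lowest line. CITED1 stood at -0.52, 1.06 and -0.54 (± 0.0790) in the same order of lines, so CMT-U229 was first and P114 and CMT-U335, which were not called in their direct comparison, followed. CCN1 stood at 0.049, -1.21 and 1.16 (± 0.11), and here every neighbouring pair of lines was also called directly. ACVR1 stood at -0.031, 0.39 and -0.35 (± 0.0550), and its neighbours CMT-U229 and P114 were not called in their direct comparison. ID3 stood at -0.034, 0.14 and -0.10 (± 0.0608), where neither P114 and CMT-U229 nor P114 and CMT-U335 were called directly. SMAD2 stood at -0.14, -0.12 and 0.26 (± 0.0508), where only P114 and CMT-U335 were called directly.

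Between the lines RGCC had the 19th largest range of 5245 genes with values on all arrays, CCN1 ranked 36 and CITED1 97, whereas ACVR1 ranked 582, SMAD2 1438 and ID3 2377. The median range over all genes was 0.21 (log2). The direct ratio of P114 to CMT-U335 and the sum of the ratios through CMT-U229 come from different arrays. They were 0.13 and 0.46 for RGCC, -1.14 and -1.04 for CCN1, 0.029 and 0.016 for CITED1, 0.26 and 0.45 for ACVR1, -0.037 and 0.28 for ID3 and -0.39 and -0.43 for SMAD2. Direct minus indirect ratios ran from -0.33 (SE 0.30) for RGCC to 0.038 (SE 0.19) for SMAD2, and none was called (adjusted p = 1.00, limma; lowest unadjusted p = 0.168, for ID3).

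**Figure D3:**
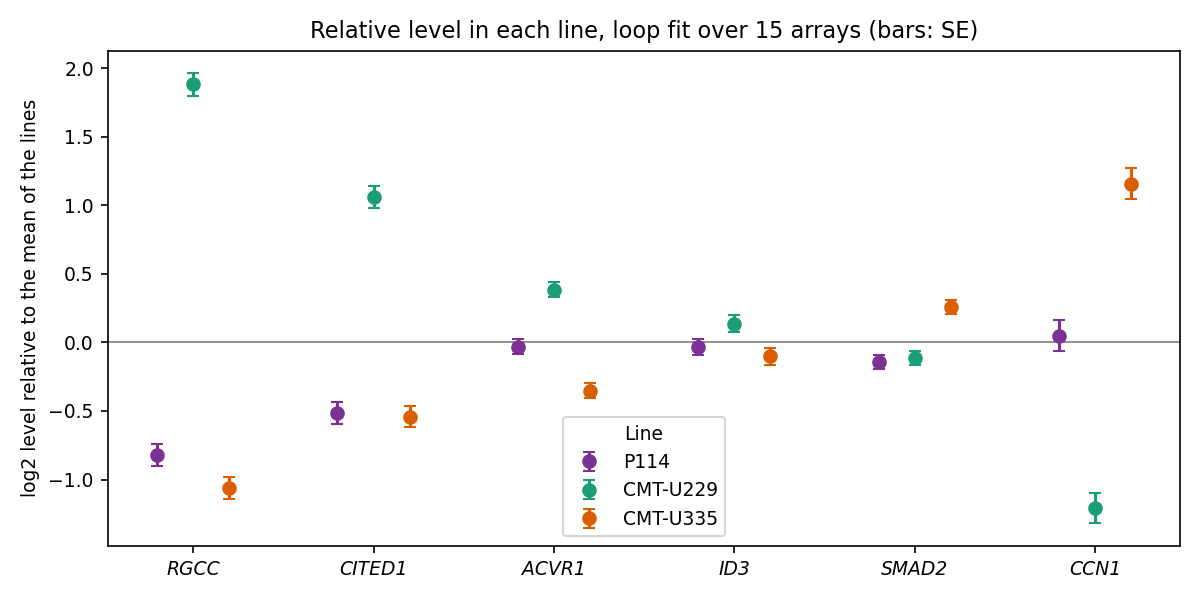
Log2 level of each gene (x axis) in each line relative to the mean of the lines (y axis), from a loop fit over 15 arrays, with bars for the SE. CMT-U229 is at 1.88 for RGCC and 1.06 for CITED1, and at -1.21 for CCN1, where CMT-U335 is at 1.16.

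Among 2549 other genes with a root mean square ratio of at least 0.3, those with the pattern most like each member's were ranked by the uncentred correlation of the log2 ratios over the 15 arrays. For RGCC they were FGL2 (0.981), MYLK (0.970) and SLC35F1 (0.969). For CITED1 they were CAPS (0.995), CYBRD1 (0.980) and LETM2 (0.973). For CCN1 they were GNPDA2 (0.964), GLRX (0.959) and FADS3 (0.944), and for ACVR1 DNAJB14 (0.974), ESD (0.949) and ITM2B (0.945). SMAD2 was most like PPP2R5D (0.928), MTIF3 (0.912) and ANAPC4 (0.912). ID3, whose ratios were small, reached lower values, with UQCC1 (0.764), RPL27 (0.759) and CDT1 (0.756). Among the members RGCC and CITED1 had a correlation of 0.925, RGCC and ACVR1 0.876, and CITED1 and ACVR1 0.795. CCN1 was at -0.883 with ACVR1, -0.875 with RGCC, -0.819 with CITED1 and 0.663 with SMAD2, and the other 8 pairs of members lay between -0.630 and 0.519. The points share arrays, RNA and lines, and with 3 lines a pattern has few free values, so these are descriptions.

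Lists of genes of the pathway, which hold the 6 members too, were examined by the same fit. Counts of a list with members in it thus include genes chosen with earlier results known. Of 150 genes listed, 42 were measured, 36 of them apart from the 6 members. Of these 36, 8 were higher and 4 lower in P114 than in CMT-U335 (33.3%), 5 higher and 2 lower in P114 than in CMT-U229 (19.4%), and 6 higher and 4 lower in CMT-U229 than in CMT-U335 (27.8%). Over all 5246 genes the shares called in these pairs were 22.3% (7.89% higher and 14.4% lower), 7.30% (3.32% and 3.98%) and 17.3% (8.77% and 8.58%), against which the counts of each list below can be read. The median log2 ratios of the 36 genes were 0.0085, 0.084 and 0.038 in these pairs in turn, and those of all genes -0.023, -0.011 and -0.0050.

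Of the ligands only BMP2 and BMP6, both members of the BMP family, were measured, and neither was called in any pair. BMP2 had mean log2 ratios of 0.0082, -0.18 and 0.18 in P114 against CMT-U335, P114 against CMT-U229 and CMT-U229 against CMT-U335, and BMP6 of -0.077, 0.12 and -0.059. Of 6 measured receptors and coreceptors ACVR1 alone was called. Of 8 SMAD proteins and regulators, 1 was higher and 2 lower in P114 than in CMT-U335, none was higher and 1 lower in P114 than in CMT-U229, and 2 were higher and 1 lower in CMT-U229 than in CMT-U335, where 22.3%, 7.30% and 17.3% of all genes were called. These counts include the members SMAD2, lower in P114 than in CMT-U335, and CITED1. CITED1 was the only one called in P114 against CMT-U229, and was among those higher in CMT-U229 than in CMT-U335. SMURF2, a ubiquitin ligase that marks SMADs and receptors for degradation, was higher in P114 than in CMT-U335, at 0.67 ± 0.11 (SE, n = 5, adjusted p = 0.00435, limma), and at 0.27 in CMT-U229 against CMT-U335 (adjusted p = 0.0444). The call at 0.27 was lost without replicate 2, 3, 4 or 5 (adjusted p from 0.0923 to 0.154, limma). PPM1A, a phosphatase that removes the activating phosphates of SMAD2, was lower in P114 than in CMT-U335 (-0.75 ± 0.0937, adjusted p = 0.00147, limma) and in CMT-U229 than in CMT-U335 (-0.49 ± 0.10, adjusted p = 0.0161; adjusted p = 0.0671 without replicate 2).

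Of 6 measured extracellular regulators 2 were higher in P114 than in CMT-U335 and 2 higher in P114 than in CMT-U229, with none lower, and 2 were higher and 1 lower in CMT-U229 than in CMT-U335, beside 22.3%, 7.30% and 17.3% of all genes called in the same pairs. BGN, the proteoglycan biglycan, was higher in P114 (0.69 ± 0.13, adjusted p = 0.00831, limma) and in CMT-U229 (0.91 ± 0.0823, adjusted p = 0.000680) than in CMT-U335. ITGAV, an integrin chain that takes part in releasing latent TGF-beta, was also higher in P114 (0.83 ± 0.10, adjusted p = 0.00141, limma) and in CMT-U229 (0.69 ± 0.0953, adjusted p = 0.00325) than in CMT-U335. DCN, the TGF-beta-binding proteoglycan decorin, was lower in CMT-U229 than in CMT-U335 (-0.81 ± 0.11, adjusted p = 0.00316, limma), with its 2 probes at -1.38 and -0.24, of which the smaller was not called by itself (adjusted p = 0.198). It was also higher in P114 than in CMT-U229 (0.90, adjusted p = 0.0461), a call lost without replicate 2, 3, 4 or 5 (adjusted p from 0.0680 to 0.139, limma). FBN1, which encodes the microfibril protein that holds latent TGF-beta in the matrix, was at 0.65 in P114 against CMT-U229 (adjusted p = 0.0247, limma), a call lost without replicate 2, 3 or 5 (adjusted p from 0.0669 to 0.0931).

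Of 13 measured target genes 5 were higher and 2 lower in P114 than in CMT-U335, 4 higher and 1 lower in P114 than in CMT-U229, and 4 higher and 2 lower in CMT-U229 than in CMT-U335. The members CCN1, RGCC and ID3 are part of these counts. CCN1 was among the lower, higher and lower genes of these pairs in turn. RGCC was the only lower gene in P114 against CMT-U229, and RGCC and ID3 were among those higher in CMT-U229 than in CMT-U335. Over all genes 7.89% were higher and 14.4% lower, 3.32% and 3.98%, and 8.77% and 8.58% in the same pairs. CDKN1A, an inhibitor of cyclin-dependent kinases, was at 3.13 ± 0.12 in P114 against CMT-U335 (SE, n = 5, adjusted p = 2.47e-05, limma) and at 1.64 ± 0.31 in CMT-U229 against CMT-U335 (adjusted p = 0.0113). In P114 against CMT-U229 it was at 1.81 (adjusted p = 0.0173, limma), called on 5 arrays but not without replicate 1, 2, 3 or 5 (adjusted p from 0.0605 to 0.0756). COL1A2, a chain of type I collagen, differed in each pair, at -1.39 ± 0.14 in P114 against CMT-U335, 2.06 ± 0.30 in P114 against CMT-U229 and -3.39 ± 0.22 in CMT-U229 against CMT-U335 (adjusted p = 0.000621, 0.00830 and 0.000211, limma). In P114 against CMT-U229 its 3 probes ran from 1.45 to 2.81, and the call was lost for the lowest probe by itself (adjusted p = 0.135, limma) and with the swaps averaged (adjusted p = 0.0942). Its order of lines, highest in CMT-U335 and lowest in CMT-U229, was that of CCN1. Other target genes did not share this order, as CDKN1A, FN1 and PMEPA1 were higher in P114 than in CMT-U335. FN1, which encodes fibronectin, was higher in P114 than in CMT-U335 (1.18 ± 0.19, adjusted p = 0.00455, limma), with its 3 probes from 0.74 to 1.56 and the lowest of them not called by itself (adjusted p = 0.0723). PMEPA1, a TGF-beta-induced inhibitor of SMAD signalling, was higher in P114 (0.90 ± 0.14, adjusted p = 0.00325, limma) and in CMT-U229 (0.62 ± 0.0912, adjusted p = 0.00426) than in CMT-U335.

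CCN1 is also a known target of the coactivators YAP and TAZ. A list of CCN proteins and YAP targets, which also holds YAP1 and WWTR1 themselves, had 6 measured genes. Of these, 2 were lower and none higher in P114 than in CMT-U335. In P114 against CMT-U229 1 was higher and 2 lower, and in CMT-U229 against CMT-U335 1 was higher and 2 lower. CCN1 was among the lower genes in P114 against CMT-U335 and in CMT-U229 against CMT-U335, and was the higher one in P114 against CMT-U229. The shares of all genes called were 22.3%, 7.30% and 17.3%. YAP1, which encodes YAP, was lower in P114 than in CMT-U335 (-1.61 ± 0.19, adjusted p = 0.00129, limma) and in P114 than in CMT-U229 (-1.54 ± 0.14, adjusted p = 0.00110). WWTR1, which encodes TAZ, was at 0.71 ± 0.14 in CMT-U229 against CMT-U335 (adjusted p = 0.0136, limma), and at -0.53 in P114 against CMT-U229 (adjusted p = 0.0446), a call lost without replicate 1, 2, 4 or 5 (adjusted p from 0.0765 to 0.138). ANKRD1, another target of YAP, was at -0.82 in CMT-U229 against CMT-U335 (adjusted p = 0.0440, limma) and lost the call without replicate 2, 3, 4 or 5 (adjusted p from 0.0784 to 0.0890). Of 3 measured ID proteins and helix-loop-helix factors, BHLHE41, a transcriptional repressor, was lower in P114 than in CMT-U335 (-0.89 ± 0.19, adjusted p = 0.0129, limma), and ID3 was the other one called. With the swaps averaged, 10 of 26 calls among these 16 named pathway genes were lost: DCN, FBN1, COL1A2, CDKN1A and WWTR1 in P114 against CMT-U229, PPM1A, SMURF2, CDKN1A and ANKRD1 in CMT-U229 against CMT-U335, and BHLHE41.

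**Figure D4:**
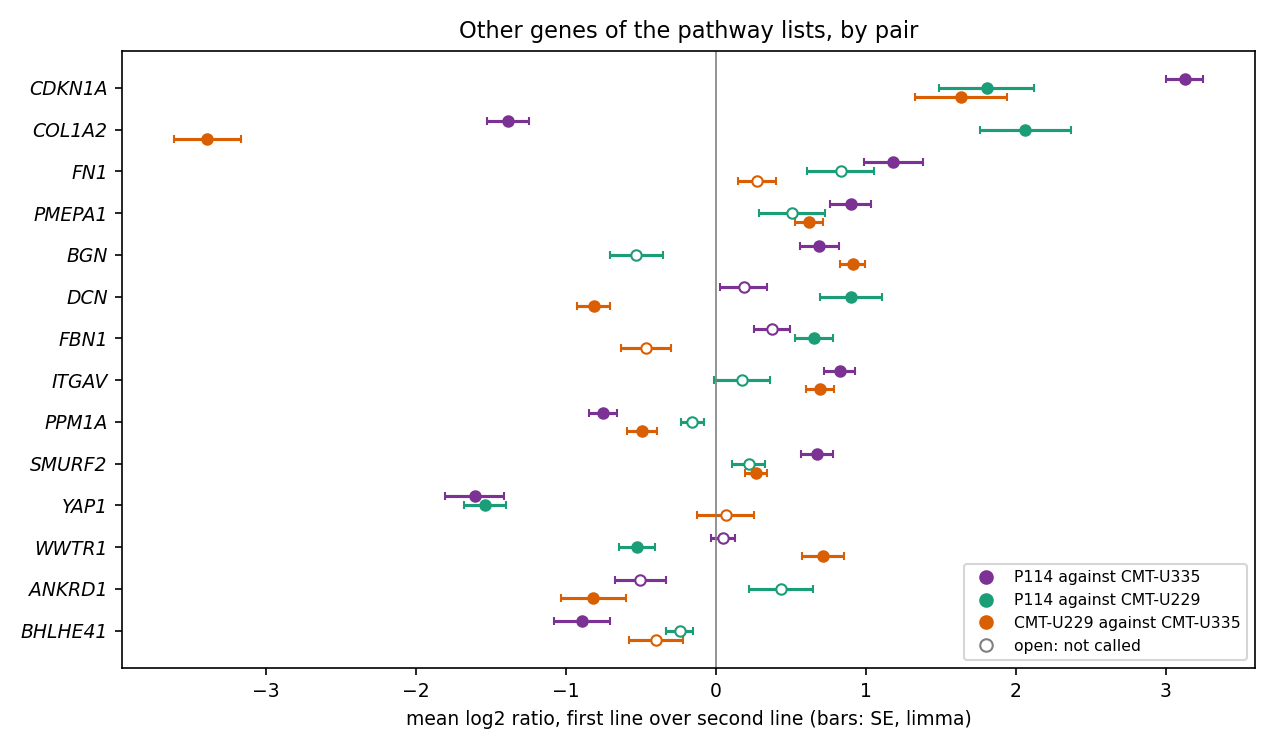
Mean log2 ratio (x axis, first line over second, with SE bars from limma) of 14 other pathway genes (y axis), coloured by pair of lines, with filled points for called values and open points for values not called. COL1A2 and DCN lie on opposite sides of 0 in P114 against CMT-U229 and CMT-U229 against CMT-U335, and YAP1 lies below -1.5 in both pairs that include P114.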

How the data were processed

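Fluorescent cRNA was made from total RNA by T7 amplification, with dyes attached through aminoallyl groups, per the labels' protocols. The deposited values, taken here as log2 ratios of both dyes on each array, were normalized and log transformed by the authors according to the design text, which names neither the normalization method, the numerator nor the log base. Array medians as deposited lay from -0.0067 to 0.013. Of 22176 probes, 7694 had 1 gene symbol in the platform annotation, and the other 14482, with none or several, were left out of the gene values. Entrez identifiers gave 7340 probes the current symbol of the RefSeq gene table (UU_Cfam_GSD_1.0), used for names only, and 354 kept theirs. By its dyes, each array was put in the order of its title. Probes of a gene were averaged, and a gene needed values on 3 of 5 arrays.

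The 5 arrays of each pair were fitted alone with limma 3.58.1 in R 4.3.3, since the design text tells of SAM run per comparison. The scripts were tested on simulated data. Members, lists and alternatives were chosen with earlier results of these data known. Named genes are the 6 members, up to 6 called genes of each pathway list (2 as values where none was called) and the 3 genes most like each member. Alternatives were array centring, scale normalization, filters, a dye term, a SAM-type test, fits over all arrays, other thresholds, a block for the replicate number, single probes, apparent swaps averaged and each array left out.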

Additional observations from a re-analysis of the deposited data

Results flagged for a closer look

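In 7 of 66 sets of 5 arrays, 1 array lay apart from the others by Dixon's 95% criterion (0.71), where chance gives about 1 in 20. For ID3 in CMT-U229 against CMT-U335, replicate 4 was at 0.025, below the others from 0.37 to 0.45. For CCN1 in P114 against CMT-U335, replicate 2 was at -2.24, below the others from -1.06 to -0.79. For ANKRD1 in CMT-U229 against CMT-U335, replicate 1 was at -1.92, below the others from -0.63 to -0.50. For CDKN1A in P114 against CMT-U229, replicate 4 was at 0.21, below the others from 1.98 to 2.52. For BGN in CMT-U229 against CMT-U335, replicate 3 was at 0.62, below the others from 0.95 to 1.06. For BMP6 in P114 against CMT-U229, replicate 5 was at 0.79, above the others from -0.21 to 0.018. For WWTR1 in P114 against CMT-U335, replicate 3 was at -0.22, below the others from 0.080 to 0.15.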

How the results depend on the processing

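Of 327 alternative values for the 6 genes, 289 kept direction and call, 27 lost a call, 5 gained one (1 of them at a threshold of 0.1) and 6 turned sign. Some outcomes were fixed: the filters left these genes' ratios as they were, and no call can be lost at 0.1 or gained at 0.01. The counts are thus no measure of stability. Losses at 0.01 were SMAD2 and ACVR1 in P114 against CMT-U335, CCN1 in P114 against CMT-U229 and ID3 in CMT-U229 against CMT-U335. For 16 other pathway genes 796 of 885 kept both, 62 lost a call, 18 gained one (5 of them FN1 in P114 against CMT-U229 and 3 ANKRD1 in P114 against CMT-U335) and 9 turned sign. Under 17 alternatives the level in CMT-U229 relative to the 3 lines ran from 1.83 to 1.95 for RGCC. It ran from 1.00 to 1.13 for CITED1 and from -1.25 to -1.13 for CCN1. In P114 the levels of ACVR1 (-0.063 to 0.0095), ID3 (-0.078 to 0.0045) and CCN1 (-0.025 to 0.14) lay on both sides of 0. Most of these alternatives left out 1 of 15 arrays, which can move a level only little, so narrow ranges here are no test of stability. Genes called in P114 against CMT-U335, P114 against CMT-U229 and CMT-U229 against CMT-U335 were 1757, 1056 and 1445 by the loop fit over 15 arrays, and 642, 159 and 470 at an adjusted p under 0.01. In P114 against CMT-U229 they were also 651 by the fit over all 15 arrays with a mean per pair and 578 at an adjusted p under 0.1. With apparent dye swaps averaged they were 79 there and 410 in CMT-U229 against CMT-U335. With 1 array left out, 202 to 408 genes were called between P114 and CMT-U229, and 571 to 863 between CMT-U229 and CMT-U335. Called members in P114 against CMT-U335 were 1 at an adjusted p under 0.01, 1 with swaps averaged and 1 to 2 with 1 array left out, and in P114 against CMT-U229 1 with swaps averaged. Of all 5246 genes, 642, 837 and 835 to 1031 were called in these settings of P114 against CMT-U335, and 79 in that of P114 against CMT-U229. Calls gained by the 6 genes were SMAD2 in CMT-U229 against CMT-U335 in the fit over all arrays (adjusted p = 0.0213, limma), the loop fit (0.00364) and the SAM-type test (0.0398), and ACVR1 in P114 against CMT-U229 in the loop fit (0.00434).

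Signs turned for values near 0, none of them called. ID3 in P114 against CMT-U335 was at 0.067 in the loop fit and from -0.13 to 0.063 with 1 array left out. With 1 array left out, the P114 to CMT-U229 ratios of SMAD2, ID3 and BMP6 ranged from -0.088 to 0.022, -0.18 to 0.025 and -0.052 to 0.20, and the P114 to CMT-U335 ratios of BMP2 and BMP6 from -0.022 to 0.053 and -0.21 to 0.078. Between CMT-U229 and CMT-U335, BMP6 was at 0.0019 with a dye term and from -0.22 to 0.10 with 1 array left out, and YAP1 at -0.085 with swaps averaged and from -0.061 to 0.29. The cause was not tested, beyond fewer values with arrays left out or averaged.

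Across pairs, the deviations of arrays of the same number had correlations from -0.25 to 0.33, of which 3 of 15 were over 0.1. The dye order of the arrays and the side of the line they share also bear on the sign. Whether arrays of the same number share RNA therefore cannot be read from these values. With the replicate number as a block, 1172, 515 and 920 genes and 2, 3 and 5 members were called, with ACVR1 in P114 against CMT-U335 (adjusted p = 0.183, limma) and SMURF2 in CMT-U229 against CMT-U335 (0.131) past the threshold no longer. Without intensities, the limit set by signal over background is unknown.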
